A study of Mus musculus with 2 samples.

Results

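The data are the transcript levels of 6 genes of the STAT family (Stat2, Stat3, Stat4, Stat5a, Stat5b and Stat6) in mouse dendritic cells (DC), the leukocytes that present antigen to T cells. The genes were taken by name and matched to the deposited rows by Entrez Gene number, and all 6 were found in both libraries, among 18090 genes listed in either. The mature library came from C57BL/6 bone marrow cells grown for 6 days with the growth factors GM-CSF (10 ng/ml) and IL-4 (1 ng/ml) and then given lipopolysaccharide (LPS), a bacterial cell wall component, at 100 ng/ml for 24 h with both growth factors still present. The immature library came from the same kind of culture with both growth factors and, as the protocol is read here, without LPS; whether these cells were kept for the same added time is not stated. Cells of both states were sorted on surface CD86 and I-Ab, with gates that are not given. There was 1 library per state, so each difference is one between 2 libraries, and no test was made.

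STAT proteins wait in the cytoplasm until a cytokine receptor is engaged. Kinases of the JAK family then phosphorylate a tyrosine near their carboxyl end, and the STAT proteins pair through their SH2 domains, enter the nucleus and bind DNA. STAT2 acts with IRF9 downstream of the interferon receptors, STAT4 downstream of the interleukin-12 receptor, STAT3 downstream of receptors for interleukin-6 and interleukin-10, both STAT5 proteins downstream of the GM-CSF receptor, and STAT6 downstream of the receptors for IL-4 and IL-13. The last 2 of these inputs, GM-CSF and IL-4, were supplied to the cultures.

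The depth was 8.07 M counted reads on 16646 genes for the mature and 7.56 M on 16573 genes for the immature library. Levels are in RPKM, counted reads divided by gene length in kilobases and by the library total in units of 1000000 reads. They can thus be set side by side between genes, save where reads could not be placed uniquely. Of 7 marker genes of mature DC, 7 had at least 2-fold more RPKM in the mature library, Cd86 of the sort among them. For this and the marker counts below, the shares over 11547 compared genes were 9.05% at least 2-fold higher and 11.3% lower. Of 8 general DC markers, 2 were higher, 1 lower and 5 within 2-fold: the integrin gene Itgax (CD11c), at 148 RPKM in the mature and 407 RPKM in the immature library, was 2.75-fold lower, Flt3 and Zbtb46 had ratios of 4.54 and 2.93, and Cd74, within 2-fold, one of 0.563. The class II genes H2-Ab1, H2-Aa and H2-Eb1 were abundant in both (978, 1260.4 and 732 RPKM in the mature and 1256, 1159 and 655 RPKM in the immature library). Of 10 markers of neutrophils and their precursors, 10 were at least 2-fold lower in the mature library, with a summed level of 858 RPKM in the mature and 6793 RPKM in the immature library. Of 8 markers of macrophages and monocytes, some of which DC also express, 4 were lower, 1 was higher and 3 lay within 2-fold, with a summed level of 1936 RPKM in the mature and 8864 RPKM in the immature library. Most of that sum was Lyz2, a lysozyme gene, at 1324 RPKM in the mature and 8168 RPKM in the immature library, and the other 7 summed to 612 RPKM in the mature and 696 RPKM in the immature library. The part of these cells in the STAT levels was not tested. In RNA of a whole sample, fewer cells of a type and less RNA per cell cannot be told apart.

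Promoter sequences are shown for Stat4 and Stat2, the only ones of the 6 genes whose windows held any of the motifs searched. The sequences are those of RefSeq on GRCm38.p6, which is not the build named for the deposited files. Each runs from 250 bases before the transcription start through 50 bases from it, and capitals mark the motif matches. Stat4 has 2 start sites in that table, both on the plus strand, at chr1:51986898-51987197 and chr1:52007990-52008289, and Stat2 has 1, on the plus strand at chr10:128270248-128270547.
Stat4 start site 1: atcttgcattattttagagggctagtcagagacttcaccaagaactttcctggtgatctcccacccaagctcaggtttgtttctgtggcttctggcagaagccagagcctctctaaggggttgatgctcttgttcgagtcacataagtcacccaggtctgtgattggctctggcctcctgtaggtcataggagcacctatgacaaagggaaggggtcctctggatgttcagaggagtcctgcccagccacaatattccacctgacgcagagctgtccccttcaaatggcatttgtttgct
Stat4 start site 2: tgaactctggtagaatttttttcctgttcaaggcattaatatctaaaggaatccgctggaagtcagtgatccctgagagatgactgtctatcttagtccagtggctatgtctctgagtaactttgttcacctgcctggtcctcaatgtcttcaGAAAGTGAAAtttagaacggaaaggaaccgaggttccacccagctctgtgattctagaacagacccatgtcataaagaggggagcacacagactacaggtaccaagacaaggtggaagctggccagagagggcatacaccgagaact
Stat2 start site 1: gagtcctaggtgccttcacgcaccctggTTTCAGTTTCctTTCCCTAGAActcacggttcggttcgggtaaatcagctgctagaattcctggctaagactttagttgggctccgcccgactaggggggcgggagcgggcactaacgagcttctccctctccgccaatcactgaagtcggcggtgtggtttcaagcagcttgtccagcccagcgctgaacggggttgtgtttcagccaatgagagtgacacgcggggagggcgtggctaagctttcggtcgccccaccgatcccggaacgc

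The motifs were the STAT element called GAS (TTCNNNGAA), its form with a spacer longer by a base (TTCNNNNGAA), the core of the interferon-stimulated response element, ISRE (GAAANNGAAA, or TTTCNNTTTC on the other strand), and a kappaB form (GGGANNTTCC, or GGAANNTCCC). Among 9 promoters of the 6 genes, 2 held a match. At the second start site of Stat4 an ISRE core began 97 bases before the start. In the Stat2 promoter an ISRE core began 222 bases and a longer-spaced GAS 210 bases before the start, and the matches did not overlap. Of 32851 promoters of the same length, 3.44% held the ISRE core, 6.95% the longer-spaced GAS, 8.3% the GAS and 1.47% the kappaB form. The share that held any of these motifs was not counted, so the 2 of 9 cannot be read as more or fewer than usual. A match is a run of letters and not a shown binding site, and the read counts do not tell which start site of Stat4 was used.

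All 6 STAT genes had a higher level in the mature library than in the immature library, and 5 of them were at least 2-fold higher on the log2(RPKM + 1) scale, while Stat6 was within 2-fold. The background was 9.05% of genes higher and 11.3% lower by the same fold, over the 11547 genes that reached 1 RPKM in either library. The median log2 fold was 1.46 over the 6 genes and 0.026 over all compared genes, of which 51.6% lay above 0. All 6 genes passed the 1 RPKM filter in both libraries, so none was compared by virtue of a single one. The plain ratio of mature to immature RPKM is given below with its exact 95% interval, which covers counting error only. For 4 of the 6 genes this interval lay wholly above 2-fold, which held for 7.23% of all compared genes. The 6 genes were chosen with earlier results of these data known, so the shares of all genes are given as a description only.

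**Figure D1:**
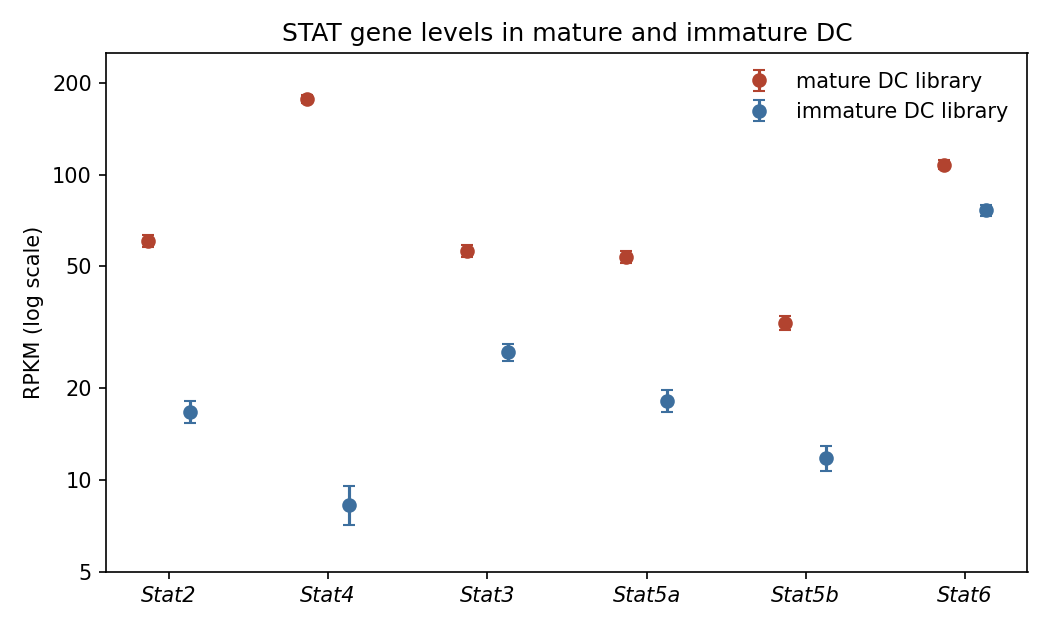
RPKM (log axis) of each STAT gene in the mature DC library (red, left of each pair) and the immature DC library (blue); bars are exact 95% counting intervals, with 1 library per state. Stat4 is the lowest of the 6 genes in the immature library (8.29 RPKM) and the highest in the mature library (176 RPKM), and the smallest gap is that of Stat6.

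Stat2 (Entrez Gene 20847), the partner of IRF9 in the interferon-activated complex, had 2156 reads and 60.7 RPKM in the mature library, against 556 reads and 16.7 RPKM in the immature library. Its ratio was 3.63 (3.31 to 3.99), at rank 259 of 11547 by log2 fold. Reads covered 99% of the gene model in the mature and 93.05% in the immature library.

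Stat4 (20849), which carries signals of interleukin-12, had 4246 reads and 176 RPKM in the mature library, against 187 reads and 8.29 RPKM in the immature library. The ratio was 21.3 (18.4 to 24.8), the largest of the 6. Its log2 fold of 4.25, on the log2(RPKM + 1) scale, was at rank 9 among all compared genes. Ordered by level among all listed genes, Stat4 stood at rank 315 in the mature and rank 6471 in the immature library. Stat4 is also known as a gene of T cells and NK cells. The summed level of 11 T cell markers was 8.38 RPKM in the mature and 4.57 RPKM in the immature library, and that of 9 NK cell markers, of which Klra8 was matched to no row, 14.1 RPKM in the mature and 7.79 RPKM in the immature library. Of the T cell markers, 3 reached 1 RPKM in a library, and 0 were higher, 0 lower and 3 within 2-fold on the log2(RPKM + 1) scale. These were Lck, a T cell kinase, on 22 reads in the mature and 5 in the immature library, a ratio of 4.12 (1.52 to 13.9), Cd3d on 16 reads in the mature and 5 in the immature, a ratio of 3.0 (1.05 to 10.5), and Cd3g on 12 reads in the mature and 6 in the immature. Cd3e, a chain of the T cell receptor complex, had 8 reads in the mature and 6 in the immature library, and Ncr1, a receptor of NK cells, 1 read in the mature and 0 in the immature library. Cd28 was at 0 reads in the mature and Cd4 at 0 reads in the immature library, and Klrb1c, an NK cell receptor, had 0 reads in the mature and 3 in the immature library. Of the NK cell markers, 4 reached 1 RPKM in a library, and 1 was higher, 0 lower and 3 within 2-fold. The higher one was Gzmb, a granule protease of NK cells and T cells, at 8.65 RPKM in the mature and 2.14 RPKM in the immature library. Gzmb alone made up most of the NK sum in the mature library. Those within 2-fold were Klrk1, on 54 reads in the mature and 50 in the immature library, Gzma on 17 and 10, and Klrd1 on 2 and 7. The part of T cells and NK cells in the Stat4 level was not tested. A non-coding gene model on the same strand, Gm28177, shares exons with Stat4 and holds 30.5% of the runs of 35 bases in its transcript, so its reads cannot be told apart from those of Stat4 there.

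Stat3 (20848), the transducer of interleukin-6 and interleukin-10, had 2037 reads and 56.2 RPKM in the mature library, against 889 reads and 26.2 RPKM in the immature library. Its ratio of 2.15 (1.98 to 2.33) lay close to the 2-fold line, and its log2 fold of 1.07 was at rank 892. It fell short of 2-fold with a pseudocount of 5 RPKM (0.97) and with the trend over gene length removed (0.96). Reads covered 73.35% of the gene model in the mature and 71.94% in the immature library, the lowest shares among the 6 genes in both.

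Stat5a and Stat5b encode the pair of STAT5 proteins, close relatives that both respond to GM-CSF. Stat5a (20850) had 1696 reads and 53.7 RPKM in the mature library, against 537 reads and 18.2 RPKM in the immature library, a ratio of 2.96 (2.68 to 3.27). Stat5b (20851) had 1385 reads and 32.6 RPKM in the mature library, against 468 reads and 11.8 RPKM in the immature library, a ratio of 2.77 (2.49 to 3.09). Stat5a was above Stat5b by a similar factor in each library, 1.65 in the mature and 1.54 in the immature. The transcripts share sequence: 784 runs of 35 bases, 20.3% of those in Stat5a and 15.1% of those in Stat5b, occur in the other, and reads there would not be placed uniquely. Their levels are therefore uncertain to that extent.

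Stat6 (20852), the transducer of IL-4 and IL-13, had 3309 reads and 108 RPKM in the mature library, against 2200 reads and 76.4 RPKM in the immature library. The ratio was 1.41 (1.33 to 1.49), the smallest of the 6, at rank 2940 by log2 fold. Its interval lay wholly above 1 and wholly below 2. Nab2, on the opposite strand, shares 40 exon bases with the end of Stat6 and had 148 reads in the mature and 219 in the immature library, fewer than Stat6 in both.

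**Figure D2:**
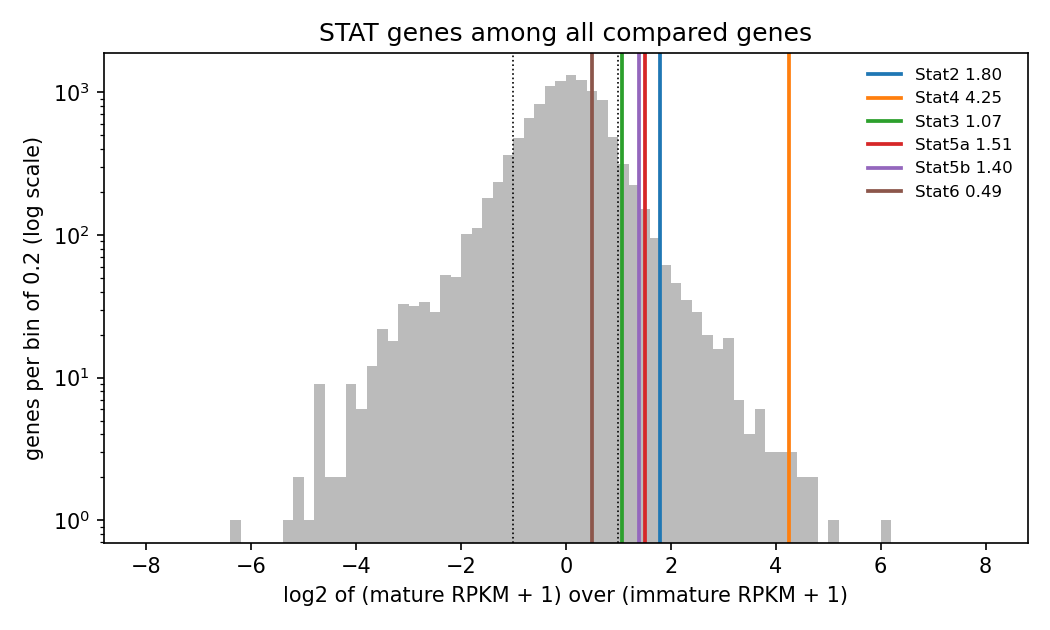
Histogram of log2 of (mature RPKM + 1) over (immature RPKM + 1) for 11547 compared genes (grey, count axis in log scale), with a coloured line for each STAT gene and dotted lines at 2-fold lower and higher. All 6 lines lie to the right of 0, Stat6 (0.49) inside the dotted lines and Stat4 (4.25) in the right tail.

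The order of the genes by level differed between the libraries. In the mature library it was Stat4, Stat6, Stat2, Stat3, Stat5a and Stat5b, where the counting intervals of Stat2 and Stat3 overlapped, as did those of Stat3 and Stat5a. In the immature library it was Stat6, Stat3, Stat5a, Stat2, Stat5b and Stat4, where those of Stat5a and Stat2 overlapped. The intervals leave out any loss of Stat5a and Stat5b reads in shared sequence and the lower coverage of Stat3. Close places in either order are therefore uncertain. The summed level of the 6 genes was 487 RPKM in the mature and 158 RPKM in the immature library, 3.09 times higher, and without Stat4 it was 311 and 149 RPKM, 2.08 times higher. Stat4 held 36.2% of the sum in the mature and 5.26% in the immature library. Stat6 held 22.1% in the mature and 48.5% in the immature library, although its own level was higher in the mature library. Together the 6 genes took 1837 of each 1000000 counted reads in the mature and 639.5 in the immature library.

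**Figure D3:**
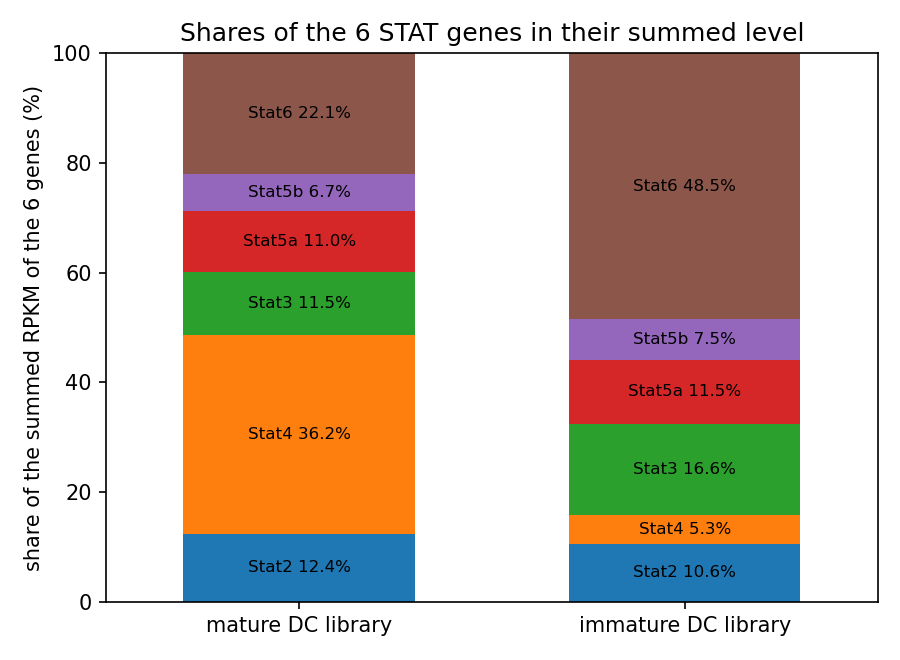
Share of each STAT gene in the summed RPKM of the 6 genes (percent, stacked to 100) in the mature DC library (left) and the immature DC library (right). Stat4 makes up 36.2% in the mature and 5.3% in the immature library, and Stat6 22.1% in the mature and 48.5% in the immature library.

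A pair of genes within a library can be compared without any scaling of the libraries to each other. Over the 15 pairs of the 6 genes, the ratio of their ratios had a 95% counting interval (exact conditional odds ratio) that left out 1 for 14 pairs and held 1 for 1 pair. Stat4 relative to Stat6 stood at 1.64 in the mature and 0.108 in the immature library, 15.1 times apart (12.9 to 17.7). Stat4 relative to Stat2 was 5.85 times apart (4.91 to 7.0), the smallest such value for Stat4. Stat2 relative to Stat5a was 1.23 times apart (1.07 to 1.41). The pair whose interval held 1 was Stat5a and Stat5b, at 1.07 (0.923 to 1.23). No adjustment was made for the number of pairs, and the intervals leave out the error between libraries. The pairs are not independent, since each gene stands in several of them. The share of such pairs among other genes was not counted, so 14 of 15 cannot be read as particular to this family.

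The genes lie in 3 places of the genome: Stat5b, Stat5a and Stat3 follow each other on chromosome 11, Stat2 and Stat6 lie on chromosome 10, and Stat4 lies on chromosome 1. The neighbours on chromosome 11 had ratios of 2.77 for Stat5b, 2.96 for Stat5a and 2.15 for Stat3, against 3.63 for Stat2 and 1.41 for Stat6 on chromosome 10. Stat3 and Stat5a lie on opposite strands and share 72 exon bases at their ends. Whether reads there were counted by strand is not given in the sources used here.

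The genes nearest in their pair of levels were found by the distance between log2(RPKM + 1) values over the 2 libraries, a measure in which many genes of middle level have close neighbours. Nearest to Stat4 was Ptgs2, the inducible prostaglandin synthase, at 157 RPKM in the mature and 10.3 RPKM in the immature library, a distance of 0.33. The semaphorin gene Sema7a (147 RPKM in the mature and 6.15 RPKM in the immature library) and the receptor gene Gpr65 (151 and 11.3 RPKM) followed, each at 0.46. Nearest to Stat2 were Fos, Sp140 and Cxcr4 at distances of 0.066 to 0.16. Nearest to Stat5a were Mapk8ip3, Sp140 and Uhrf2, to Stat5b C9orf72, Rnf31 and Plxnc1, and to Stat3 Aftph, Tmem131l and Ubap1.

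The lists that follow hold genes around STAT signalling. Among all compared genes, 9.05% were at least 2-fold higher and 11.3% lower. The lists were chosen with earlier results of these data known, so setting their counts beside these shares is a description and gives no evidence of enrichment. Some genes stand in more than 1 list. Of the 4 JAK kinases, 2 were at least 2-fold higher, 0 lower and 2 within 2-fold, with a median log2 fold of 0.68. Jak2, the kinase of the GM-CSF and interleukin-12 receptors, stood at 318 RPKM in the mature and 133 RPKM in the immature library, a ratio of 2.39 (2.31 to 2.47). Jak3, the partner of the common gamma chain, stood at 17.6 and 8.24 RPKM in the same order, a ratio of 2.14 (1.83 to 2.51). Jak1 had 99.4 RPKM in the mature and 78.2 RPKM in the immature library, and Tyk2, which pairs with Jak2 at the interleukin-12 receptor, 36.4 and 40.6 RPKM.

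Around Stat2, 1 of 5 genes for interferon receptors and the STAT2 partner was at least 2-fold higher, 0 were lower and 4 lay within 2-fold, with a median of 0.63. The higher one was Irf9, at 37.7 RPKM in the mature and 14.3 RPKM in the immature library, a ratio of 2.63 (2.29 to 3.03). The receptor genes Ifnar1 and Ifnar2 had ratios of 1.2 (1.12 to 1.29) and 1.62 (1.48 to 1.78). Of 18 compared genes known as STAT2 targets, 12 were at least 2-fold higher, 0 lower and 6 within 2-fold, with a median of 1.42. The highest ratios in the list were those of Irf7, an interferon regulatory factor, at 16.3 (13.3 to 20.1), and Oasl1, of the oligoadenylate synthetase family, at 11.1 (8.13 to 15.4). Rsad2, which encodes the antiviral protein viperin, had a ratio of 6.36 (5.32 to 7.65) and Mx2 one of 9.49 (5.58 to 17.4), on 152 reads in the mature and 15 in the immature library.

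Around Stat4, 1 of 5 receptor genes was at least 2-fold higher, 0 were lower and 4 lay within 2-fold. Their median was 0.68, and 0.47 over genes covered by at least 50%. Il12rb1, the interleukin-12 receptor chain shared with the interleukin-23 receptor, was low in both libraries, at 2.28 RPKM in the mature and 2.9 RPKM in the immature library. Il12rb2, the chain that binds STAT4, stood at 10.05 RPKM in the mature and 5.61 RPKM in the immature library, a ratio of 1.79 (1.44 to 2.24). Reads covered only 24.8% of the Il12rb2 gene model in the mature and 23.96% in the immature library, against 56.63% and 60.01% for Il12rb1. The Il12rb2 level may therefore not stand for the whole transcript. Il23r, on 51 reads in the mature and 2 in the immature library, had a ratio of 23.9 (6.28 to 203). Of 8 compared genes known as STAT4 targets, largely from T cells, 2 were higher, 1 lower and 5 within 2-fold, with a median of 0.48, which was 0.15 with no filter on low values, 0.22 over genes covered by at least 50% and 0.74 with a filter at 5 RPKM. Gadd45b and Gadd45g, stress-induced activators of MAP kinase signalling, had ratios of 5.66 (4.93 to 6.53) and 3.36 (2.66 to 4.28). Il18rap, a chain of the interleukin-18 receptor, was 2.84-fold lower (2.11 to 3.87). Ifng, the interferon gene that STAT4 is best known for, had 5 reads in the mature and 4 in the immature library, and Tbx21 had 2 reads in each.

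Around Stat3, 2 of 10 compared receptor genes were higher, 2 lower and 6 within 2-fold, with a median of -0.070. Il6st, which encodes the shared chain gp130, stood at 57.9 RPKM in the mature and 15.0 RPKM in the immature library, a ratio of 3.87 (3.54 to 4.23), and Il23r was the other higher one. Il10ra had a ratio of 1.07 (0.991 to 1.16). The lower ones were Lifr, at 1.29 RPKM in the mature and 3.95 RPKM in the immature library, and Il27ra, at 0.742 RPKM in the mature and 2.77 RPKM in the immature library. Of 14 genes known as STAT3 targets, 6 were higher, 1 lower and 7 within 2-fold, with a median of 0.87. Saa3, an acute phase gene, had a ratio of 23.3 (17.4 to 31.9), Etv3, a transcriptional repressor, one of 3.5 (3.31 to 3.7), and Fos and Tnfrsf1b had ratios of 3.4 (2.97 to 3.9) and 3.26 (3.1 to 3.43). Myc was the lower member, 11.3-fold lower (8.29 to 15.8).

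Around the Stat5 genes, 1 of 9 compared receptor genes was higher, 1 lower and 7 within 2-fold, with a median of -0.051. The lower one was Csf2ra, the GM-CSF-binding chain, at 43.2 RPKM in the mature and 219 RPKM in the immature library, 5.06-fold lower (4.65 to 5.52). Csf2rb, the signalling chain, stood at 1253 RPKM in the mature and 798 RPKM in the immature library, a ratio of 1.57 (1.55 to 1.59). Il7r, a receptor chain for interleukin-7 and TSLP, was the higher one, with a ratio of 6.56 (6.05 to 7.11). Of 12 genes known as STAT5 targets, 1 was higher, 2 lower and 9 within 2-fold, with a median of 0.44. Socs2 was higher at 2.31 (2.13 to 2.5), while Cish, a textbook STAT5 target, had 71.6 RPKM in the mature and 93.2 RPKM in the immature library. The cyclin gene Ccnd1 was 11-fold lower (8.59 to 14.2) and Bcl2, a survival gene, 4.02-fold lower (3.01 to 5.44).

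Around Stat6, 1 of 3 receptor genes was higher, 0 lower and 2 within 2-fold, with a median of 0.17. Il4ra, the chain that docks STAT6, stood at 139 RPKM in the mature and 50.9 RPKM in the immature library, a ratio of 2.72 (2.59 to 2.87). Its partners Il13ra1 and Il2rg had ratios of 1.13 (1.03 to 1.24) and 0.742 (0.700 to 0.786). Of 17 compared genes known as STAT6 targets, 10 were at least 2-fold lower, 3 higher and 4 within 2-fold. Their median was -1.72, the lowest among the lists around STAT signalling. It was -1.27 with no filter on low values and with a pseudocount of 5 RPKM, and -1.36 with the trend over gene length removed. Retnla, an IL-4-induced secreted protein, was 33.4-fold lower (21.2 to 55.9) and Mgl2, a lectin of alternatively activated cells, 27.0-fold lower (24.2 to 30.3). Mrc1, the mannose receptor, was 16.3-fold lower (12.9 to 20.8) and Alox15, a lipoxygenase, 21.3-fold lower (11.6 to 43.2). The higher ones were the chemokine gene Ccl22 at 8.34 (8.14 to 8.53), Il4ra, and Pdcd1lg2, a ligand of PD-1, at 2.39 (2.21 to 2.6). Mrc1 and Chil3, both lower, are also genes of macrophages; of the 8 macrophage and monocyte markers above, 4 were lower, 1 higher and 3 within 2-fold, and the part of these cells in the STAT6 targets was not tested.

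**Figure D4:**
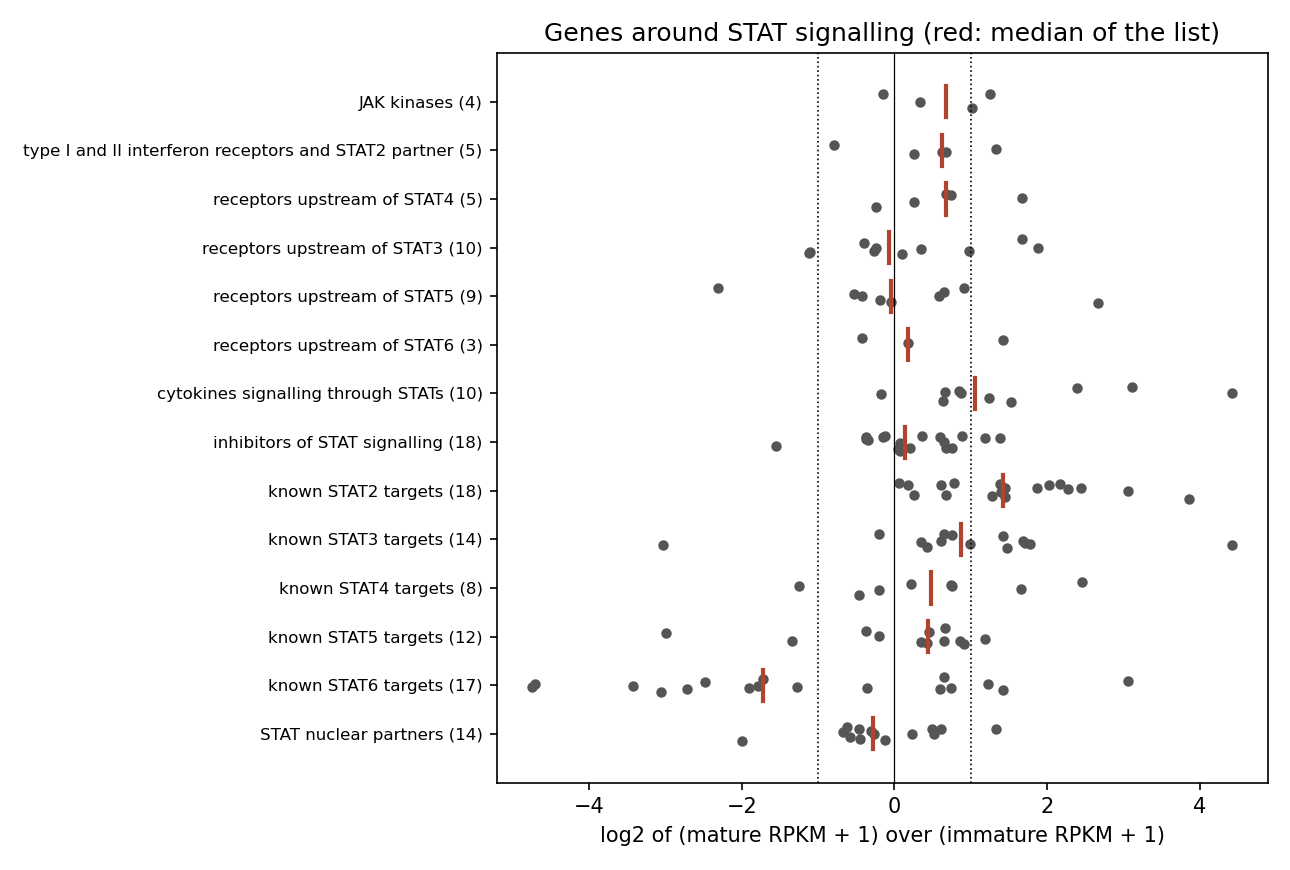
Log2 of (mature RPKM + 1) over (immature RPKM + 1) for the genes of each list (grey points, number compared in parentheses), with the list median in red and dotted lines at 2-fold lower and higher; vertical jitter has no meaning. The STAT2 targets lie to the right of 0 (median 1.42) and the STAT6 targets mostly to the left (median -1.72).

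Among cytokines that signal through STAT proteins, 5 of 10 compared were at least 2-fold higher, 0 lower and 5 within 2-fold, with a median of 1.05, and of 0.69 when 5 RPKM and 1.59 when 0.1 RPKM was added in place of 1 RPKM. Il12b, the gene of the interleukin-12 subunit p40, had 369 reads in the mature and 2 in the immature library, a ratio of 173 (47.5 to 1433). Il12a, the p35 subunit, had 118 reads in the mature and 32 in the immature library, a ratio of 3.45 (2.32 to 5.28). Il6, a ligand upstream of STAT3, had a ratio of 9.22 (7.64 to 11.2), Il15 one of 7.07 (4.52 to 11.6), and Lif, also upstream of STAT3, one of 2.74 (2.19 to 3.45). Ifnb1 had 0 reads in the mature and 1 in the immature library, and Il10 had 7 reads in the mature and 1 in the immature library.

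Of 18 compared inhibitors of STAT signalling, 15 lay within 2-fold, 2 were higher and 1 lower. Most genes of any kind lay within 2-fold, 9192 of the 11547 compared. The inhibitors had a median of 0.14, which was 0.032 with the trend over gene length removed and 0.22 after scaling to a common sum of RPKM. Besides Socs2, the higher one was Usp18, which damps the type I interferon receptor, with a ratio of 3.26 (2.2 to 4.97). Reads covered only 31.5% of the Usp18 gene model in the mature and 26.72% in the immature library. The Usp18 level may therefore not stand for the whole transcript. Ptpn6, the phosphatase SHP-1, was the lower one, at 70.2 RPKM in the mature and 208 RPKM in the immature library, 2.97-fold lower (2.78 to 3.17). Socs1, which blocks JAK kinases, had 5.18 RPKM in the mature and 2.93 RPKM in the immature library, a ratio of 1.77 (1.09 to 2.93). Socs3, the inhibitor of gp130 signalling, had 41.0 and 24.0 RPKM in the same order, a ratio of 1.71 (1.53 to 1.91).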

How the data were processed

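RNA of cells sorted on surface CD86 and I-Ab was sequenced, as 1 mature and 1 immature DC library. The deposited counts are uniquely placed reads per gene, unnormalised, and the RPKM values were made by the authors, per the file headers; the formula returned every deposited RPKM within a relative deviation of 1.07e-07. The files also give gene length and, per the file headers, the percent of it covered. The submitters' processing notes name build mm8; the sources used here give no aligner, counting tool, strandedness or annotation. Symbols came from RefSeq (GRCm38.p6); 1871 of 18090 IDs had none, with 0.758% of mature and 0.538% of immature reads.

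Genes reaching 1 RPKM in either library were compared. The fold was taken on the log2(RPKM + 1) scale, mature over immature, which understates low genes, and called at 2-fold. Ratios carry Clopper-Pearson 95% intervals on reads (scipy 1.17.1). These intervals cover counting error only, since each state had 1 library. Reads were not tied to single molecules by identifiers, so copies of the same molecule may be counted more than once. The intervals do not allow for that and may be too narrow. RPKM intervals are exact Poisson. The edgeR 4.0.16 and DESeq2 1.42.0 packages gave alternative scaling factors only. Transcript overlaps and runs of 35 bases came from GENCODE M21 on GRCm38; runs of 35 bases stand for reads, whose length is not given. The steps were tested on simulated data. Named genes are the 6 STAT genes, up to 4 higher and 4 lower per list by size, 22 fixed pathway genes, and the 3 nearest in pattern to each STAT gene at least 2-fold apart; part of them is reported. Lif, Il10, Ifnb1, Ifng, Tbx21, Chil3, Nab2, Gm28177 and the single markers of other cell types were named after their values were seen. The members and lists were chosen with earlier results of these data known. The planned comparison of protein sequences is not reported here.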

Additional observations from a re-analysis of the deposited data

How the results depend on the processing

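All 6 STAT genes stayed above 0 under each of 10 other settings of pseudocount, filter, scaling, gene length and coverage. For some settings this was fixed in advance. Filter and coverage only choose which genes are compared and leave a gene's own fold unchanged, and a pseudocount cannot turn its sign. Only the settings of scaling and gene length could have done so. The log2 folds ranged from 1.60 to 1.88 for Stat2, 3.77 to 4.39 for Stat4 and 0.96 to 1.16 for Stat3. They ranged from 1.34 to 1.60 for Stat5a, 1.17 to 1.48 for Stat5b and 0.45 to 0.57 for Stat6. The number at least 2-fold higher was 4 or 5, since Stat3 crossed the line. A pseudocount of 5 RPKM, which by its construction draws low values towards 0, gave 1.60 for Stat2, 3.77 for Stat4, 1.34 for Stat5a and 1.17 for Stat5b, with 469 of all genes higher and 686 lower in place of 1045 and 1310. Stat5b stood at 1.20 with the gene length trend removed. Stat6 stood at 0.57 after scaling to a common sum of RPKM, an alternative chosen after seeing the data, under which the median of all compared genes was 0.10. In shares of raw reads, which weight long genes more, Stat4 held 28.6% in the mature and 3.87% in the immature library, Stat6 45.5% in the immature, Stat3 13.7% in the mature and 18.4% in the immature, Stat5b 9.34% in the mature and 9.68% in the immature, and Stat2 14.5% in the mature library. The median of the receptors upstream of STAT3 turned to 0.096 when the filter was 5 RPKM and when genes had to be covered by 50% or more, and to 0.0091 under the common sum; that of the receptors upstream of STAT5 turned to 0.20 and 0.59 in the first 2 of these settings, in which fewer genes were compared. No paired analysis was possible because each state has 1 library. The lowest count was that of Stat4 in the immature library, 187 reads, and the error between libraries was not measured.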

Other observations

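Nuclear partners of STAT proteins, a list of coactivators, importins and corepressors, lay mostly within 2-fold, as did 9192 of the 11547 compared genes. Of 14 partners compared, 1 was at least 2-fold higher, 1 lower and 12 within. Their median log2 fold was -0.29, which was -0.12 over genes covered by at least 50%. The higher one was Irf9, described above. The lower one was Kpna2, an importin also known as a gene of proliferating cells. It stood at 1.5 RPKM in the mature and 9.0 RPKM in the immature library, 6.02-fold lower (3.91 to 9.62). Its reads, 25 in the mature and 141 in the immature library, covered only 4.54% and 7.82% of the gene model. The level may therefore not stand for the whole transcript. The coactivator genes Ep300 and Crebbp, which the naming rule did not hold and which were chosen after their values were seen, had ratios of 1.55 (1.46 to 1.65) and 1.43 (1.31 to 1.56). B cell markers, which were measured as another cell type of marrow, had a summed level of 1.75 RPKM in the mature and 2.78 RPKM in the immature library, with 4 of 7 at 0 reads in the mature and 0 of 7 in the immature library. Cd79b, the 1 that reached 1 RPKM, had 14 reads in the mature and 4 in the immature library, a ratio of 3.28 (1.03 to 13.7).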
